A study of Mus musculus with 24 samples.

Results

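The miR-17-92 and miR-106b-25 clusters are paralogous polycistronic miRNA genes, and their guide strands, the strands that are mainly loaded into Argonaute, were followed here in mouse liver RNA of different quality. The 9 guide strands were selected by their exact names among the 1881 mouse miRNAs of an Agilent one-colour array: mmu-miR-17-5p, mmu-miR-18a-5p, mmu-miR-19a-3p, mmu-miR-19b-3p, mmu-miR-20a-5p and mmu-miR-92a-3p of miR-17-92, and mmu-miR-106b-5p, mmu-miR-93-5p and mmu-miR-25-3p of miR-106b-25. The rule uses names alone, although the clusters were chosen with earlier results of these data known. The liver of each of 3 male mice, numbered 7, 9 and 10, gave 8 arrays, 1 in each of 8 groups, so that 24 arrays were compared. The prefix mmu, for mouse, is left out below where the name is clear without it.

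The groups were as follows. Total RNA including small RNAs was isolated with the miRNeasy kit from tissue preserved at once (0 h) or left at room temperature for 96 h, each with or without DNase digestion on the column. RNA depleted of small RNAs was isolated with the RNeasy kit, with DNase, from tissue of 0 h. It was hybridized directly, or it was first incubated at 0 U, 0.026 U or 0.67 U of RNase and isolated again. The RNA integrity number (RIN), which is low in degraded RNA, ranged from 8.8 to 9.0 at 0 h, from 2.3 to 2.5 at 96 h, from 9.0 to 9.4 in depleted RNA without RNase, from 6.0 to 7.0 at 0.026 U and from 2.4 to 2.9 at 0.67 U. The kit reduces small RNAs and does not remove them all. The strain, genotype and age of these 3 mice are not given in the sources used here, which name an Il1a knock-out strain of C57BL6 background for the mice of the study's other experiment. Each piece of liver was a bulk tissue, in which fewer cells of a type and less RNA per cell cannot be told apart. For mouse 9 the titles and the descriptions of the arrays at 0.026 U and 0.67 U name opposite doses, and the descriptions were followed. Each mouse had its own slide, scanned once, and these cannot be told apart.

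The miR-17-92 cluster, known as oncomiR-1, is transcribed as 1 primary RNA from the host gene Mir17hg and is induced by MYC and E2F factors. It promotes proliferation and survival, for example by repressing the pro-apoptotic gene Bim, and it is prominent in dividing and haematopoietic cells. The miR-106b-25 cluster lies within Mcm7, a gene of the replicative helicase. A miRNA finds its targets mainly through the seed, bases 2 to 8 from its 5′ end, and miRNAs with the same seed tend to share targets.

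The mature sequences are shown because the members fall into 4 seed families, and because probes for near-identical members may share target RNA. They were taken from RefSeq (build GRCm38.p6), where all 9 names were matched, and are written 5′ to 3′ with the seed in capitals. The first family, with 4 members, holds the miR-17 type.
mmu-miR-17-5p: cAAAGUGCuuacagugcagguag
mmu-miR-20a-5p: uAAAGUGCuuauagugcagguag
mmu-miR-106b-5p: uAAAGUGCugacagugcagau
mmu-miR-93-5p: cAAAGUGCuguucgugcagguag
The seed of miR-18a-5p was shared with no other member.
mmu-miR-18a-5p: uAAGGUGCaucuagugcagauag
Both miR-19 members had 1 seed.
mmu-miR-19a-3p: uGUGCAAAucuaugcaaaacuga
mmu-miR-19b-3p: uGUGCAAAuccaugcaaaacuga
The last family pairs 1 member of each cluster.
mmu-miR-92a-3p: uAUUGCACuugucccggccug
mmu-miR-25-3p: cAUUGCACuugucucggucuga

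In this build the 6 mature sequences of miR-17-92 lay within 813 bases of the plus strand, at chr14:115043684-115044496. Those of miR-106b-25 lay within 476 bases of the minus strand, at chr5:138165332-138165807. The genes Mir19b-2 and Mir92-2 in the miR-106a-363 cluster on the X chromosome give the same mature miR-19b-3p and miR-92a-3p, so the signal of these 2 members cannot be assigned to a single cluster. Counted from 1 at the 5′ end, miR-19a-3p and miR-19b-3p differed by U11C alone, miR-17-5p and miR-20a-5p by C1U and C12U, and miR-92a-3p and miR-25-3p by U1C, C14U and C18U over the 21 shared positions, so that signals within each of these pairs may be partly shared. The share of G and C was lowest in miR-19a-3p, at 34.8%, and highest in miR-92a-3p, at 57.1%.

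Levels are given first as hybridization signal, the background-subtracted intensity per miRNA before any scaling between arrays. A miRNA counted as detected where the scanner software flagged it. Of the members, miR-92a-3p and miR-25-3p were detected on all 24 arrays, miR-93-5p on 23, miR-19b-3p and miR-106b-5p on 12, miR-20a-5p on 11, miR-19a-3p on 9, miR-17-5p on 4 and miR-18a-5p on 1. Tests were made on the glog2 scale, a log2-like scale obtained by variance stabilizing normalization (vsn), for the 631 miRNAs detected on at least 5 arrays. This kept 7 of the 9 members, while miR-17-5p and miR-18a-5p were tested only in a fit without this filter. Calls required a limma adjusted p under 0.05 together with a change of 1 or more in glog2. The number of arrays limits the precision.

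**Figure D1:**
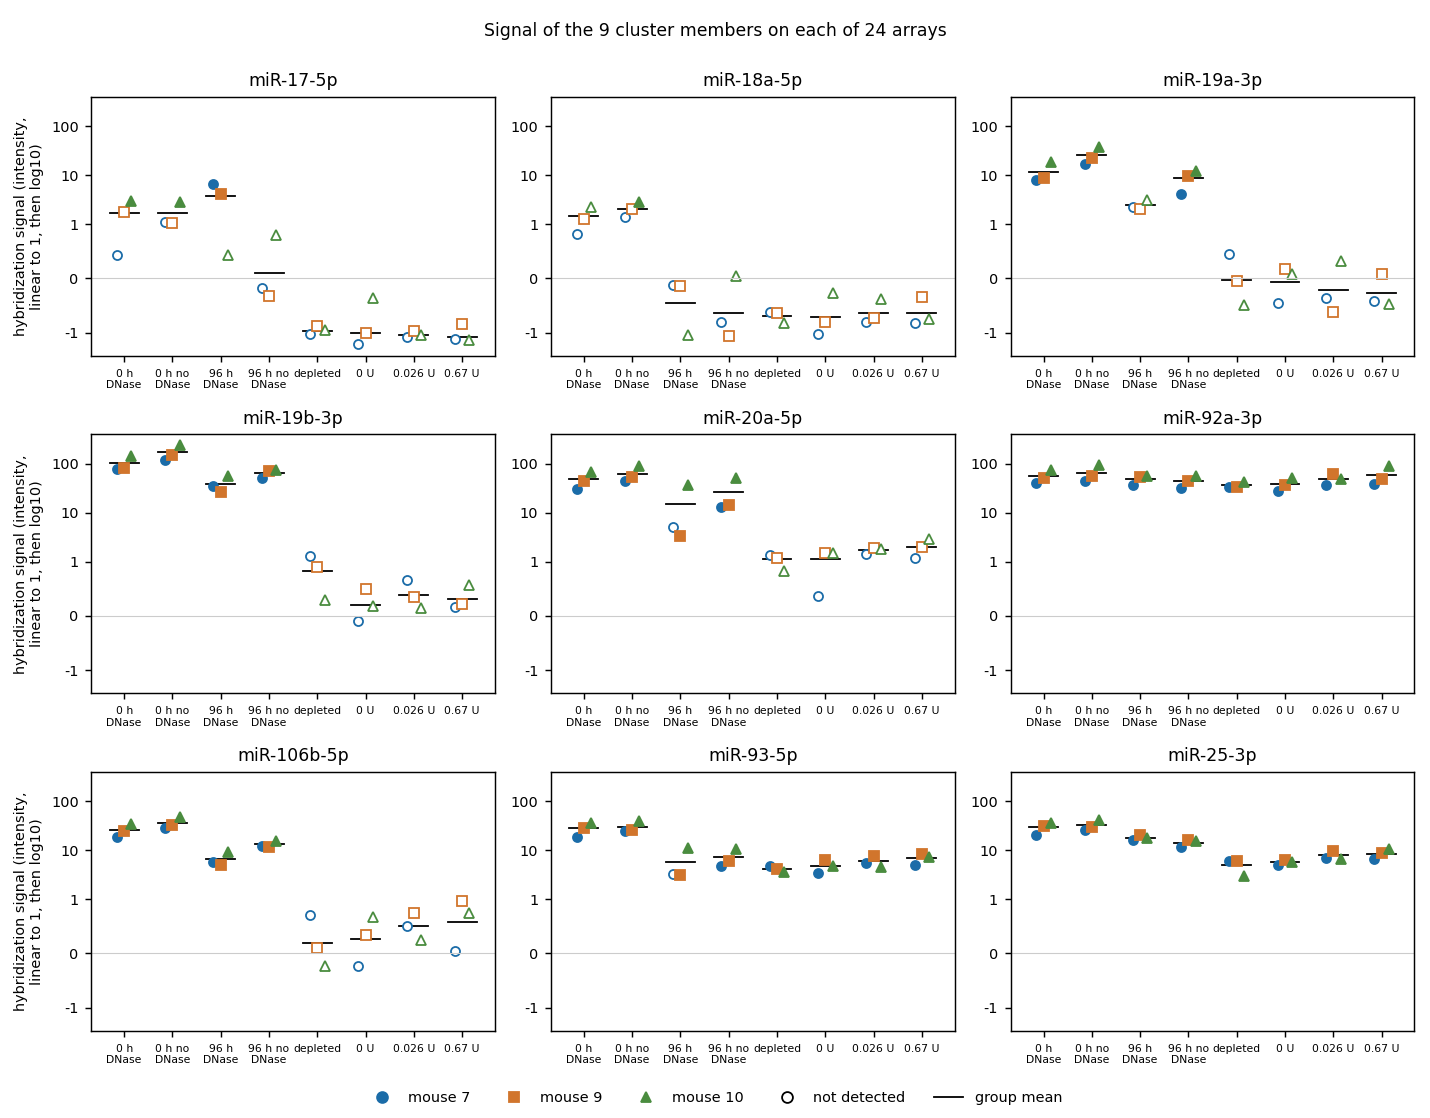
Hybridization signal (intensity, linear up to 1 and log10 above) of each of the 9 members on 24 arrays, by group, with 1 symbol per mouse, open where the miRNA was not detected, and a line at the mean of 3 arrays. miR-92a-3p stayed between 28.1 and 93.4 on every array, whereas miR-19a-3p, miR-19b-3p, miR-20a-5p and miR-106b-5p were detected on no array of depleted RNA.

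The first question was what storage for 96 h does to the signals of these members. All 7 tested members were lower at 96 h, both with and without DNase, and each was lower in 3 of 3 mice. Among all 631 tested miRNAs, 21.6% were called lower with DNase and 23.0% without. These shares are no matched background, since only 273 to 342 miRNAs were detected on the 0 h arrays. The median change of the members was -3.41 with DNase and -3.01 without, on the glog2 scale, while the median of all tested miRNAs was 2.47 and 2.16. These sizes contain the scaling between arrays, which is treated below with the unscaled signals.

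In the miR-17 seed family, miR-20a-5p gave signals of 31.3, 45 and 69.4 at 0 h with DNase in mice 7, 9 and 10, and of 5.02, 3.35 and 36.2 at 96 h. The array of mouse 10 at 96 h thus lay above that of mouse 7 at 0 h, so the groups overlapped. Without DNase its signals were 44.5, 54.8 and 89.4 at 0 h, and 12.8, 14.4 and 51.5 at 96 h. The fitted change was -3.98 ± 0.63 (SE) glog2 with DNase (limma adjusted p = 6.62e-06) and -3.11 ± 0.63 without (limma adjusted p = 0.00012). Mouse 10 kept 52.1% of its unscaled miR-20a-5p signal with DNase, whereas mice 7 and 9 kept 16.1% and 7.45%. Without DNase, from other pieces of the same livers, these shares were 57.6%, 28.7% and 26.2%.

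For miR-93-5p the signals were 19.0, 28.9 and 35.9 at 0 h with DNase and 3.22, 3.13 and 11.1 at 96 h, where mouse 7 was below detection. No 96 h array reached a 0 h array, and mouse 10 was again the highest at 96 h. The change was -3.93 ± 0.43 (SE) glog2 with DNase (limma adjusted p = 5.81e-08) and -3.57 ± 0.43 without (limma adjusted p = 2.20e-07). Its cluster neighbour miR-106b-5p gave 18.6, 24.6 and 34.8 at 0 h and 5.82, 4.91 and 9.40 at 96 h with DNase. The groups did not overlap, and the changes were -3.53 ± 0.36 and -3.01 ± 0.36 (limma adjusted p = 3.07e-08 and 2.59e-07).

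The miR-19 members, which are held to be the main oncogenic part of miR-17-92 in lymphoma, fell as well. For miR-19b-3p the signals were 79.4, 83.3 and 148 at 0 h and 34.7, 26.4 and 55.5 at 96 h with DNase, without overlap. Its change was -3.20 ± 0.37 (SE) glog2 with DNase (limma adjusted p = 1.20e-07) and -3.0 ± 0.37 without (limma adjusted p = 3.08e-07). For miR-19a-3p, 8.10, 8.71 and 18.5 at 0 h stood against 2.23, 2.04 and 3.06 at 96 h. All 3 of these 96 h arrays were below detection, and the change was -3.41 ± 0.50 (SE, limma adjusted p = 2.92e-06) after vsn. The size of this change depended on the scaling, and it was -1.83 with no scaling, -1.78 with spike-in scaling and -0.84, no longer called, with the normexp background correction. Without DNase it was detected on all 3 arrays at 96 h, at 4.15, 9.54 and 12.1, and its change was -3.13 ± 0.50 (limma adjusted p = 9.39e-06).

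The smallest changes were those of the seed family of miR-92a-3p, a member held to act on endothelial cells, and miR-25-3p. miR-92a-3p gave 40.3, 52.3 and 76.4 at 0 h and 36.9, 52.9 and 57.1 at 96 h with DNase, so that the unscaled groups overlapped broadly. Its scaled change was -1.98 ± 0.34 (SE) glog2 with DNase (limma adjusted p = 1.84e-05) and -2.19 ± 0.34 without (limma adjusted p = 5.74e-06). miR-25-3p gave 20.9, 31.1 and 36.1 at 0 h and 16.1, 20.7 and 17.9 at 96 h, so that the groups did not overlap, though the highest 96 h array came close to the lowest 0 h array. Its changes were -2.41 ± 0.29 and -2.74 ± 0.29 (limma adjusted p = 1.92e-07 and 4.25e-08).

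**Figure D2:**
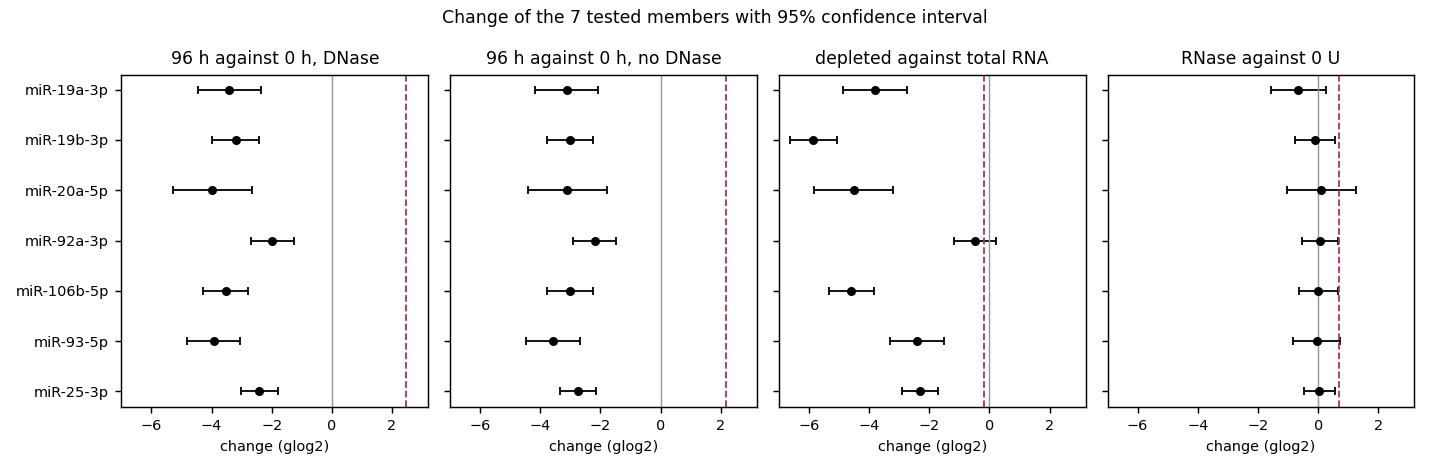
Change of the 7 tested members (glog2, x axis) with its 95% confidence interval in 4 comparisons, each over 3 mice. The dashed line is the median of all 631 tested miRNAs, the grey line is 0, and miR-92a-3p is the member whose interval reaches 0 after depletion (-1.19 to 0.23).

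The scaling carried much of these changes. On arrays of stored tissue 582 to 707 miRNAs were detected, against 273 to 342 on the 0 h arrays, and vsn shifted the stored arrays by -1.43 (with DNase) and -1.30 (without) on the log2 scale and the 0 h arrays by 0.40 and 0.38. With no scaling the median change of all tested miRNAs with DNase was 3.82. Then miR-20a-5p changed by -2.26, miR-93-5p by -2.25, miR-19a-3p by -1.83, miR-106b-5p by -1.82 and miR-19b-3p by -1.40, all still called lower. The same scaling gave -0.63 for miR-25-3p and -0.17 for miR-92a-3p, which were no longer called, and scaling to the spike-in controls gave -0.60 and -0.15. Without DNase, miR-92a-3p was not called under both of these settings, with -0.53 and -0.48.

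**Figure D3:**
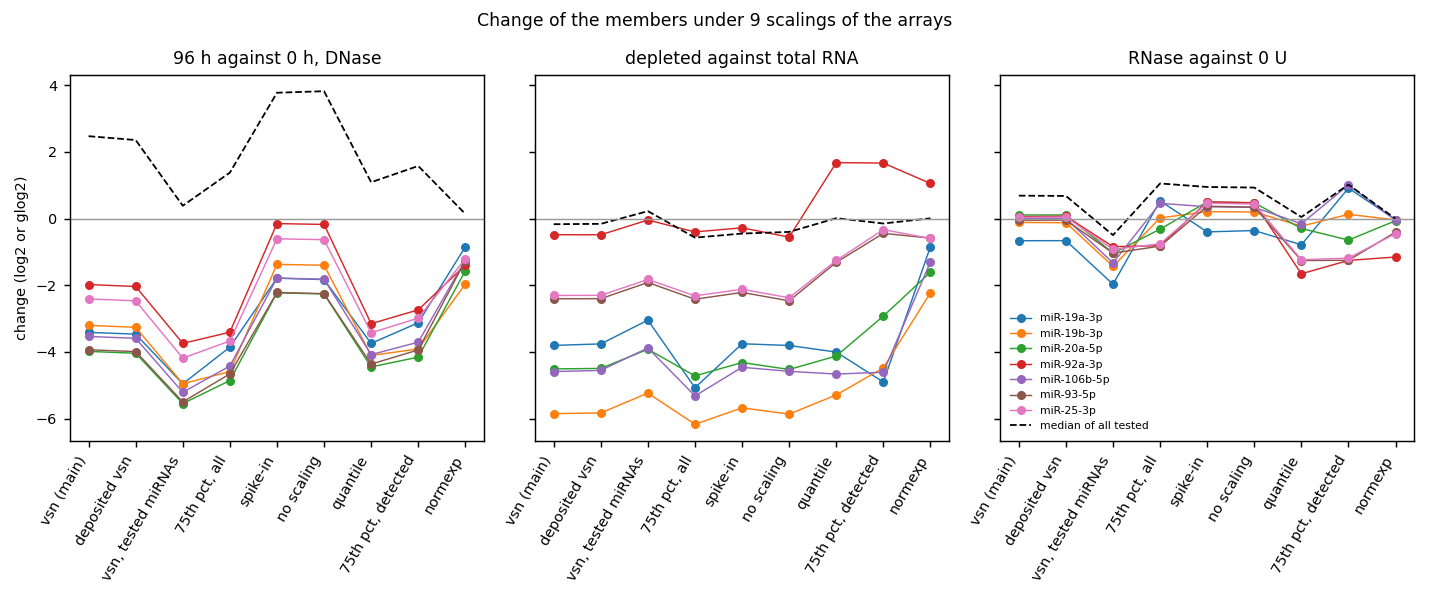
Change of the 7 tested members (y axis, log2 or glog2) under 9 scalings of the arrays (x axis) for storage with DNase, for depletion and for RNase, with the median of all tested miRNAs dashed. For storage every member lies below 0 under each of the 9 scalings, and for depletion miR-92a-3p lies above 0 under 3 of the 9.

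A shift of a whole array on the log2 scale cancels in the difference between the changes of 2 members, whereas other corrections need not. The changes over both DNase states were compared for all 21 pairs of tested members, with an exact two-sided permutation test that exchanged arrays within each mouse and Benjamini-Hochberg adjustment over the pairs. The smallest p this allows is 0.00926. The fall of miR-92a-3p was smaller than that of miR-19b-3p by 1.02 ± 0.16 (SD, n = 3 mice), than that of miR-106b-5p by 1.19 ± 0.31, than that of miR-93-5p by 1.67 ± 0.54 and than that of its seed partner miR-25-3p by 0.491 ± 0.095 glog2 (exact permutation adjusted p = 0.0389 each, 3 of 3 mice each). The fall of miR-93-5p exceeded that of its cluster neighbour miR-25-3p by 1.18 ± 0.59 (exact permutation adjusted p = 0.0389, 3 of 3 mice). The other 16 pairs did not pass, among them miR-19a-3p against miR-19b-3p with a difference of -0.17 ± 0.22 (exact permutation adjusted p = 0.553). With no scaling the same 5 pairs passed. Without mouse 10, 20 of the 21 differences had the same sign, but the smallest p possible was then 0.0556. With the normexp background correction 15 pairs passed, 1 of the 5 among them in the same direction, and miR-92a-3p then fell more than miR-25-3p, by 0.166. That correction adds an offset of 50 to every spot before the logarithm.

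In unscaled signal, miR-92a-3p kept the largest share of its own 0 h signal in every mouse, with 91.5%, 101% and 74.8% in mice 7, 9 and 10 with DNase and 69.8%, 78.4% and 59.8% without. The next share belonged to miR-25-3p in mice 7 and 9, with 77.2% and 66.5% with DNase, and to miR-20a-5p in mouse 10. The smallest share was 7.45%, for miR-20a-5p in mouse 9. Across the 7 tested members the share of G and C and the change with storage had a Pearson correlation of 0.57 with DNase and 0.43 without. For the change after depletion of small RNAs the correlation was 0.85. These values are given as a description of members that share the same arrays.

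**Figure D4:**
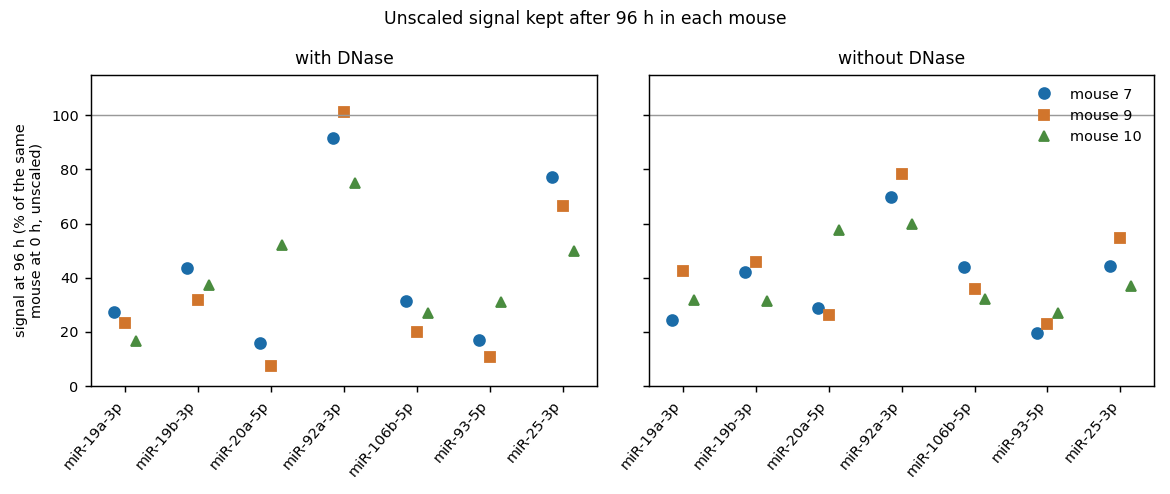
Unscaled signal at 96 h as a percentage of the same mouse at 0 h (y axis) for the 7 tested members (x axis), with and without DNase, with 1 symbol per mouse. miR-92a-3p is highest in each mouse, and miR-20a-5p of mouse 10 (52.1% and 57.6%) stands above mice 7 and 9.

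Both probes of a member, each on 15 spots per array, were compared where both gave positive means. With DNase, the mean signal left at 96 h was 37.8% and 37.1% for the probes of miR-19b-3p, 34.2% and 30.5% for miR-20a-5p, and 59.4% and 63.5% for miR-25-3p. The probes of miR-92a-3p left 104% and 80.4%, those of miR-106b-5p 34.2% and 25.2%, those of miR-19a-3p 23.0% and 17.5%, and those of miR-93-5p 17.5% and 27.5%. The direction was thus shared by both probes for the tested members other than miR-92a-3p. No spot of a member was saturated.

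The 2 members that did not pass the filter were close to background. miR-17-5p gave 0.433, 1.73 and 2.99 at 0 h with DNase, detected in mouse 10, and 6.60, 4.03 and 0.425 at 96 h, detected in mice 7 and 9. Only 1 of its probes carried the 96 h signal, with a mean of 3.91, while the mean of the other was -0.733. Without DNase miR-17-5p was detected on no array at 96 h. miR-18a-5p was detected only in mouse 10 at 0 h without DNase, at 2.82, and its signal was at most 0.0405 on the 96 h arrays. Without the filter, which tests all 1881 miRNAs, miR-17-5p was called lower at 96 h without DNase (-2.35 ± 0.83 SE, limma adjusted p = 0.0176) and not with DNase (-0.78 ± 0.83, limma adjusted p = 0.419), and miR-18a-5p was called lower in both (-3.49 ± 0.61 and -2.79 ± 0.61, limma adjusted p = 4.12e-05 and 0.000412). In that fit 559 of the 1881 miRNAs were called lower at 96 h with DNase and 519 without. With DNase the values of miR-18a-5p rest on signals below detection at both times. Both members were called lower after depletion, by fitted values of -4.63 and -3.20. All signals behind these values were below detection, apart from that of miR-17-5p at 0 h in mouse 10. After depletion 188 of the 1881 miRNAs were called lower in that fit. In intact RNA as well, the member that gives miR-17-92 its name was thus near the detection limit of the array.

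The next comparison asked whether DNA contributes to these signals. Without DNase at 0 h, no member was called, nor was any of the 631 miRNAs (0.0% called, limma), with 1 member and 30 of all miRNAs at an unadjusted p under 0.05. The member was miR-19a-3p, whose signals of 17.1, 22.4 and 37.9 without DNase were 2.11, 2.57 and 2.05 times those with DNase in mice 7, 9 and 10 (change 1.11 ± 0.50 SE, limma adjusted p = 0.905). At 96 h no member was called, with 10.8% of all miRNAs called, and 3 members had an unadjusted p under 0.05. The largest change was again that of miR-19a-3p, 1.39 ± 0.50 (limma adjusted p = 0.0896), higher in 3 of 3 mice. The others were miR-106b-5p, with 1.0 ± 0.36 (limma adjusted p = 0.091), and miR-19b-3p, with 0.91 ± 0.37 (limma adjusted p = 0.132), each higher in 3 of 3 mice. miR-20a-5p, with 1.24 ± 0.63 (limma adjusted p = 0.262), was not among them, and miR-92a-3p differed by -0.03 and miR-25-3p by -0.20. The absence of calls at 96 h rested on mouse 10: without it, 4 members (miR-19a-3p, miR-19b-3p, miR-20a-5p and miR-106b-5p) were called higher, by 1.36 to 1.84. Without that mouse 152 of the 631 miRNAs were called in either direction, against 68 with all mice, so calls rose among all miRNAs. The storage change differed between the DNase states for none of the 7 members, none of which had an unadjusted p under 0.05, against 1.11% of all miRNAs called.

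Depletion of small RNAs tests how much of a signal needs small RNA. In depleted RNA 6 of the 7 tested members were called lower than in RNA with small RNAs, and miR-92a-3p was not called. Among all 631 tested miRNAs 24.4% were called lower, but this share is no matched background. miR-19a-3p, miR-19b-3p, miR-20a-5p and miR-106b-5p passed the detection filter through arrays of RNA with small RNAs alone. Only 285 to 308 miRNAs were detected on the 0 h arrays with DNase, so many tested miRNAs had no detected signal to lose. The members' median change was -3.80 and that of all tested miRNAs -0.17. Here vsn, spike-in scaling and no scaling gave values close to each other, but other settings did not: scaling to the 75th percentile of the miRNAs detected on all arrays gave -2.92 for miR-20a-5p and -4.48 for miR-19b-3p, and normexp -1.61 and -2.23. Where no array of a group was detected, the fold on the vsn scale is given as a bound, which sets the mean of the brighter group against the higher of the dim signal and the lowest detected signal on each array.

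Of the members below detection on all 3 depleted arrays, miR-19b-3p fell from 79.4, 83.3 and 148 to 1.29, 0.897 and 0.298, at least 48.3-fold (limma adjusted p = 8.62e-11). miR-20a-5p fell from 31.3, 45 and 69.4 to 1.35, 1.16 and 0.824, at least 21.5-fold (limma adjusted p = 6.41e-06). miR-106b-5p was at least 13.2-fold lower (limma adjusted p = 2.60e-09) and miR-19a-3p at least 5.94-fold (limma adjusted p = 3.34e-06), and the latter was not called with normexp (-0.84). These 4 members came from both clusters. They were grouped here because they were below detection in depleted RNA, so the lack of overlap between the groups is no separate result.

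The other 3 members stayed detected. miR-93-5p gave 4.83, 4.11 and 3.53 in depleted RNA against 19.0, 28.9 and 35.9 (change -2.40 ± 0.43 SE, limma adjusted p = 0.00011). miR-25-3p gave 5.99, 6.04 and 2.92 against 20.9, 31.1 and 36.1 (change -2.30 ± 0.29, limma adjusted p = 1.48e-06). Both fell to a similar extent and lay without overlap below their 0 h signals.

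miR-92a-3p gave 33.3, 34.2 and 43.5 in depleted RNA against 40.3, 52.3 and 76.4, so that the groups overlapped and 82.7%, 65.5% and 57.0% of its unscaled signal was left. Its change was -0.48 ± 0.34 (SE, 95% confidence interval -1.19 to 0.23, limma adjusted p = 0.35), lower in 3 of 3 mice. The sign depended on the scaling, since quantile normalization, the 75th percentile of the miRNAs detected on all arrays and normexp called it higher, by 1.68, 1.67 and 1.06. Under the first of these, miR-93-5p and miR-25-3p were still called lower, while under the other 2 they were not, with values from -0.60 to -0.33. In unscaled signal the next share left after miR-92a-3p was 28.7%, 19.4% and 9.85% in mice 7, 9 and 10. The 2 probes of miR-92a-3p left 62.5% and 67.0%.

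RNase treatment of the depleted RNA asked whether fragments of longer RNA give the signal of a miRNA. Incubation without enzyme (0 U) changed no member, with 1.74% of all miRNAs called. With RNase, both doses against 0 U, no member was called, nor was any at either dose alone. Among all tested miRNAs 44.7% were called (36.8% at 0.026 U and 45.3% at 0.67 U). These shares are no matched background, since 203 to 238 miRNAs were detected on the 0 U arrays and 317 to 403 on those at 0.67 U. No member had an unadjusted p under 0.05. The exact rank test called none of the 631 miRNAs in this comparison. With so few arrays it can pass the adjustment only if a large part of the 631 reach its smallest possible p. Its lack of calls therefore decides nothing. The changes ran from -0.66 for miR-19a-3p to 0.11 for miR-20a-5p, while the median of all miRNAs was 0.69.

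Before scaling, miR-92a-3p gave 28.1, 36.5 and 50.3 at 0 U, 36.5, 63.0 and 49.9 at 0.026 U and 39.6, 48.7 and 90.7 at 0.67 U. Its signal at 0.67 U was thus 1.41, 1.33 and 1.80 times that at 0 U in mice 7, 9 and 10, within overlapping groups. For miR-25-3p the same ratios were 1.30, 1.38 and 1.80. Its highest signal without enzyme, 6.29, was below its lowest with RNase (6.57 for the low dose, 6.62 for the high dose). Its unscaled signals with RNase thus did not overlap those without enzyme. For miR-93-5p the ratios were 1.45, 1.32 and 1.58, within overlapping groups. The mean vsn shift on the log2 scale was 0.77 without enzyme, against 0.41 for the low dose and 0.30 for the high dose. On the scaled values the changes were 0.06 ± 0.29 (SE) for miR-92a-3p, 0.04 ± 0.25 for miR-25-3p and -0.05 ± 0.37 for miR-93-5p (limma adjusted p = 0.933, 0.95 and 0.958). The count of members called with RNase depended on the scaling, with 3 lower under quantile normalization or the 75th percentile of the miRNAs detected on all arrays (miR-92a-3p, miR-25-3p and miR-93-5p), 4 lower with vsn on the 631 tested miRNAs and 1 with normexp. In the main fit 282 of the 631 miRNAs were called higher and 0 lower. The shares of all miRNAs under the other settings are not given here, so these counts are no result about the members. miR-19a-3p, miR-19b-3p, miR-20a-5p and miR-106b-5p were below detection on all arrays at 0 U and on all arrays with RNase.

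The 4 groups with small RNAs had the same order of mean signal for miR-19a-3p, miR-19b-3p, miR-20a-5p, miR-106b-5p and miR-93-5p. For miR-106b-5p it was 36.4 ± 10.4 (SD, n = 3) at 0 h without DNase, 26.0 ± 8.17 at 0 h with DNase, 13.2 ± 1.94 at 96 h without DNase, 6.71 ± 2.37 at 96 h with DNase and at most 0.588 ± 0.484 in depleted RNA. The first 2 means differed by less than the spread between mice, although each of the 3 mice was higher without DNase, and the means of the 4 groups of depleted RNA also lay within that spread. For miR-92a-3p the 8 group means ran from 37.0 ± 5.64 in depleted RNA to 65.3 ± 25.1 at 0 h without DNase, and neighbours in the order did not differ beyond their spread. For miR-25-3p they ran from 32.4 ± 8.12 at 0 h without DNase over 29.4 ± 7.74 at 0 h with DNase, 18.3 ± 2.31 at 96 h with DNase and 14.4 ± 2.49 at 96 h without to 4.98 ± 1.78 in depleted RNA.

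The detected members together gave a signal of 218 to 422 at 0 h with DNase, 0.297% to 0.394% of all detected signal. At 96 h with DNase this was 100.2 to 187, or 0.0319% to 0.0939%. In depleted RNA the sum was 44.2 to 50, yet the share was higher, at 0.498% to 0.534%, since the total detected signal was only 8313 to 9631 there. Most of this sum was miR-92a-3p, with a mean of 37.0 against 46.2 for the detected members together. After RNase at 0.67 U the sum was 51.3 to 109 and the share 0.0615% to 0.0937%.

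Across the 24 arrays the glog2 values of miR-20a-5p, miR-106b-5p and miR-19a-3p followed the mean of the other 6 tested members with Pearson correlations of 0.97, 0.97 and 0.95. For miR-25-3p it was 0.88, for miR-19b-3p 0.83, for miR-93-5p 0.76 and for miR-92a-3p 0.31. These values describe arrays that share mice and slides. Outside the cluster families, the 5 of 620 miRNAs whose pattern was most like the mean of the 7 members were miR-194-5p and miR-122-3p (Pearson r = 0.988 each), miR-142a-3p (0.986), miR-126a-5p (0.984) and miR-30a-5p (0.982). miR-194-5p and miR-122-3p are abundant in hepatocytes, miR-142a-3p in blood cells and miR-126a-5p in endothelium.

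Among the passenger strands and the miR-106a-363 cluster, 18 of 19 listed miRNAs were matched, and 14 were detected on no array. miR-20b-5p, of the miR-17 seed family and different from miR-20a-5p by U1C and U10C, gave 15.2, 22.8 and 34.3 at 0 h with DNase and 2.68, 2.97 and 19.4 at 96 h. It kept 17.7%, 13.0% and 56.5% of its signal in mice 7, 9 and 10, the pattern of miR-20a-5p, and its change was -3.53 ± 0.55 (SE, limma adjusted p = 5.75e-06). In depleted RNA it was below detection and at least 12-fold lower. The sequences of miR-20a-5p and miR-20b-5p are shown together because shared target RNA of their probes cannot be told apart from a shared change.
mmu-miR-20a-5p: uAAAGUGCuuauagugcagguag
mmu-miR-20b-5p: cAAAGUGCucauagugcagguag

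The passenger strand miR-17-3p gave 2.53, 3.33 and 4.5 at 0 h with DNase, and 7.84, 9.32 and 1.87 at 96 h. Its scaled change was -1.05 ± 0.35 (SE, limma adjusted p = 0.00876), although the unscaled signal of mice 7 and 9 was higher at 96 h. The unscaled signal of miR-18b-3p was 2.79, 2.52 and 2.29 at 0 h and 19.6, 14.8 and 15.1 at 96 h, without overlap, and its scaled change of 0.64 was not called. miR-92a-2-5p, the passenger strand of the second miR-92a gene, was below detection at 0 h, and detected on 2 arrays at 96 h with DNase, on 3 without and on 3 of 6 with RNase, at most at 3.89.

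The liver label was checked against hepatocyte miRNAs. miR-122-5p, the most characteristic miRNA of hepatocytes, gave 6767, 11368 and 12125 at 0 h with DNase and was detected on all arrays. It changed by -3.08 ± 0.49 (SE) with storage (limma adjusted p = 6.71e-06) and by -1.79 ± 0.49 after depletion (limma adjusted p = 0.00622). Markers of other cell types changed as well: at 96 h with DNase 2 of 3 tested erythroid, 3 of 4 leukocyte, 2 of 2 endothelial, 4 of 5 mesenchymal and 2 of 2 biliary markers were called lower, against 21.6% of all tested miRNAs, while 1 erythroid and 1 leukocyte marker were called higher. The summed signal of the leukocyte markers ranged from 41.4 to 119 at 0 h and from 52.8 to 76.4 at 96 h with DNase, that of the erythroid markers from 224 to 429 and from 182 to 236. All 5 biliary markers were undetected at 96 h, whereas 2 were undetected on all 0 h arrays with DNase. The part of these cells in the changes of the members was not tested.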

How the data were processed

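Hybridization signals of miRNAs came from 24 arrays of mouse liver RNA. Signals were extracted by the authors with Feature Extraction 10.10.1.1 of Agilent, per the file headers. The deposited files of single arrays give intensity after background subtraction, without scaling between arrays. The deposited table of all arrays holds log2-like (glog2) values that the authors made by vsn. It was checked that this table is an inverse hyperbolic sine of the scanner signal with a largest residual of 1.03e-05.

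vsn was recomputed from the scanner files in Python 3.11.15 (7 rounds, 90% of miRNAs kept in each of 5 slices) over 1881 miRNAs. Groups were compared with limma 3.58.1 (R 4.3.3), 8 group means, empirical Bayes with a variance trend, and no term for the mouse. A call needed a Benjamini-Hochberg adjusted p under 0.05 over 631 miRNAs and a change of at least 1, 2-fold. The steps were tested on simulated data. Alternatives were other scalings and filters, a mouse block, leaving out each mouse, and the study's rank test. The arrays carry the number of the animal, and this pairs them. Deviations from the group means correlated with a mean of 0.0914 between arrays of a mouse and -0.0449 between mice. The normexp correction used the median spot signal. The 9 members and the lists of related miRNAs and markers were chosen with earlier results of these data known. Named were all members, the listed relatives detected on every array of at least 1 group, the 5 miRNAs with the most similar pattern, and miR-122-5p. The comparison of pairs of members was chosen after the data were seen. Array gene positions were not used here.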

Additional observations from a re-analysis of the deposited data

Results flagged for a closer look

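Signals outside the tested data appeared for the members that the filter on detection removed. miR-17-5p was detected at 96 h with DNase at 6.60 in mouse 7 and 4.03 in mouse 9, above its highest 0 h signal with DNase of 2.99, and this came from 1 of its 2 probes. miR-18a-5p was detected at 2.82 in mouse 10 at 0 h without DNase, above its highest signal with DNase of 2.19. In a fit without the detection filter, the change of miR-17-5p at 96 h with DNase was -0.78 ± 0.83 (SE, limma adjusted p = 0.419), and that of miR-18a-5p without DNase at 0 h 0.46 ± 0.61 (limma adjusted p = 0.996).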

How the results depend on the processing

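The number of members called was compared over 18 alternatives. The exact rank test, which 3 arrays against 3 cannot bring below 0.1, called 0 members lower with storage in both DNase states and 0 after depletion. That test called 0 of the 631 miRNAs lower in these comparisons. normexp left 3 members lower after depletion, with 42 of the 631 miRNAs called lower against 154 in the main fit. With RNase, both doses together, scaling to the 75th percentile of the always detected miRNAs and quantile normalization each called 3 members, vsn on the kept miRNAs 4 and normexp 1. At 0.026 U these settings called 3, 3, 3 and 1 members and at 0.67 U 3, 3, 5 and 1, and taking the doses of mouse 9 from the titles called 1 at 0.67 U. The shares of all miRNAs called under these RNase settings are not given here. Leaving out a mouse gave 7 members lower with storage in each DNase state, 6 after depletion, 0 to 4 without DNase at 96 h, and 0 in each other comparison. Of the 631 miRNAs, 132 to 140 were then called lower with storage with DNase, 142 to 145 without, and 130 to 147 after depletion. Without DNase at 96 h, 5 to 152 were called. With storage 6 members were lower with DNase under the 75th percentile of detected miRNAs and under normexp. There miR-19a-3p lost its call (-3.12 and -0.84), and 140 and 74 of the 631 miRNAs were called lower. Without DNase 6 members were lower under the former (-3.10 for miR-19a-3p), with 134 of all miRNAs. Spike-in scaling and no scaling each left 5 members with DNase and 6 without. All miRNAs called lower then numbered 89 and 91 with DNase, and 94 and 97 without. After depletion miR-19a-3p was not called with normexp (-0.84). Among pairs of members, 15 differed under normexp against 5. For miR-92a-3p the change after depletion turned to 1.67, 1.68 and 1.06 and that with RNase to -1.25, -1.65 and -1.15 under the 75th percentile of detected miRNAs, quantile normalization and normexp. With RNase miR-25-3p turned to -1.18 and -1.23 under the first 2 of these, and miR-106b-5p to -1.33 with vsn on the kept miRNAs. The cause of these differences was not tested. With the replicate block for the mouse, 7 members were lower with storage in each DNase state, 6 after depletion and 0 changed elsewhere, so the pairing changed no call of a member. Of all 631 miRNAs, 135 and 146 were then called lower with storage with and without DNase, and 162 after depletion. Members under detection give bounds only, and signals near background limit miR-17-5p and miR-18a-5p.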
